A study of Sus scrofa with 16 samples.

Results

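The transcripts described here encode 6 secreted proteins of the extracellular matrix, COL1A2, COL3A1, DCN, POSTN, FBN1 and MFAP5, which were taken by gene symbol from a raw count table of 3875 pig genes. All 6 had counts in each of the 16 libraries and entered every comparison. The cells were satellite cells (SCs), the resident stem cells of skeletal muscle, isolated from the intercostal muscle of 4 wild-type (WT) and 4 DMD piglets, male and 3 days old. DMD animals lack exon 52 of DMD, the dystrophin gene, and served as a model of Duchenne muscular dystrophy. Cells were enriched magnetically, first by removal of CD31- and CD45-positive cells and then by selection for integrin β1, NCAM1 and M-cadherin. Every animal contributed 1 library of proliferating cells (PROL, passage 6, growth medium with 20% serum and bFGF) and 1 library of differentiating cells (DIFF, medium with 5% horse serum), so that WT PROL, WT DIFF, DMD PROL and DMD DIFF held 4 libraries each. Differentiation lasted 10 days where the methods describe RNA sampling and 7 days where they describe culture. All 4 groups were primary cultures, grown first on Matrigel and after passage 3 on dishes coated with rat-tail collagen I. No other allele or agent is stated.

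Collagens I and III assemble into the fibrils that carry tension in connective tissue, and decorin (DCN), a small leucine-rich proteoglycan, binds those fibrils and shapes their assembly. Fibrillin-1 (FBN1) polymerises into microfibrils, to which microfibril-associated protein 5 (MFAP5) attaches, whereas periostin (POSTN) is a matricellular protein that bridges collagen and cell-surface integrins. In muscle these proteins are mainly made by fibroblasts and fibro-adipogenic progenitors, although cultured myogenic cells also transcribe collagen genes, and their accumulation is a feature of fibrosis in dystrophic muscle. The comparisons asked how the absence of dystrophin and the change from PROL to DIFF were accompanied by changes in these transcripts.

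Library totals ranged from 1110050 to 1781174 counts. Levels are given as CPM, the counts of a gene per 1000000 counts of its library after scaling by the trimmed mean of M values (TMM). RN18S, a ribosomal RNA, took 6.32% to 20.4% of the counts, and the highest share belonged to DMD PROL replicate 4, in which 1 of the technical duplicates held 31.99% and the other 7.14%. The targeted gene does not check the labels, since 3′ tags lie outside the deleted exon. DMD had 6 counts in each WT PROL library and 12 to 22 in WT DIFF, and in the DMD genotype 24 to 32 during PROL and 30 to 48 during DIFF. Among the myogenic markers, PAX7, NCAM1 and CDH15 were not among the genes counted, MYF5 had 0 counts in all 8 WT libraries against totals of 30 in DMD PROL and 40 in DMD DIFF, and MYOD1 totalled 8 (PROL) and 4 (DIFF) counts in WT against 52 and 16 in DMD. DES, the muscle intermediate filament, averaged 70.9 (PROL) and 270.5 (DIFF) CPM in WT against 1169 and 2055 in DMD. Within the counts, the labelled cell type therefore rested on few defining markers in the WT libraries. The study also reports PAX7 and desmin staining of isolated cells from both genotypes, and a MYOD band on blots of both. For the genotype, its blots of isolated proliferating cells showed full-length dystrophin in WT and no dystrophin in DMD.

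In PROL, all 6 transcripts were lower in DMD than in WT SCs, from 1.56-fold for COL1A2 to 19.9-fold for POSTN, and no DMD library reached the lowest WT library for any of them. In DIFF the pattern split. POSTN was 60.8-fold, DCN 18.8-fold, COL3A1 3.09-fold and FBN1 1.85-fold lower in DMD, whereas COL1A2 and MFAP5 did not pass the test. Differentiation raised 5 transcripts in each genotype by unequal amounts: COL1A2 and MFAP5 rose more in DMD than in WT, and DCN rose less. A gene was called when edgeR's quasi-likelihood test gave an adjusted p (Benjamini-Hochberg) under 0.05 together with a log2 fold change beyond ±0.6. Because RNA was extracted from whole cultures, fewer cells of a producing type and less RNA per cell cannot be told apart in any of these values.

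**Figure D1:**
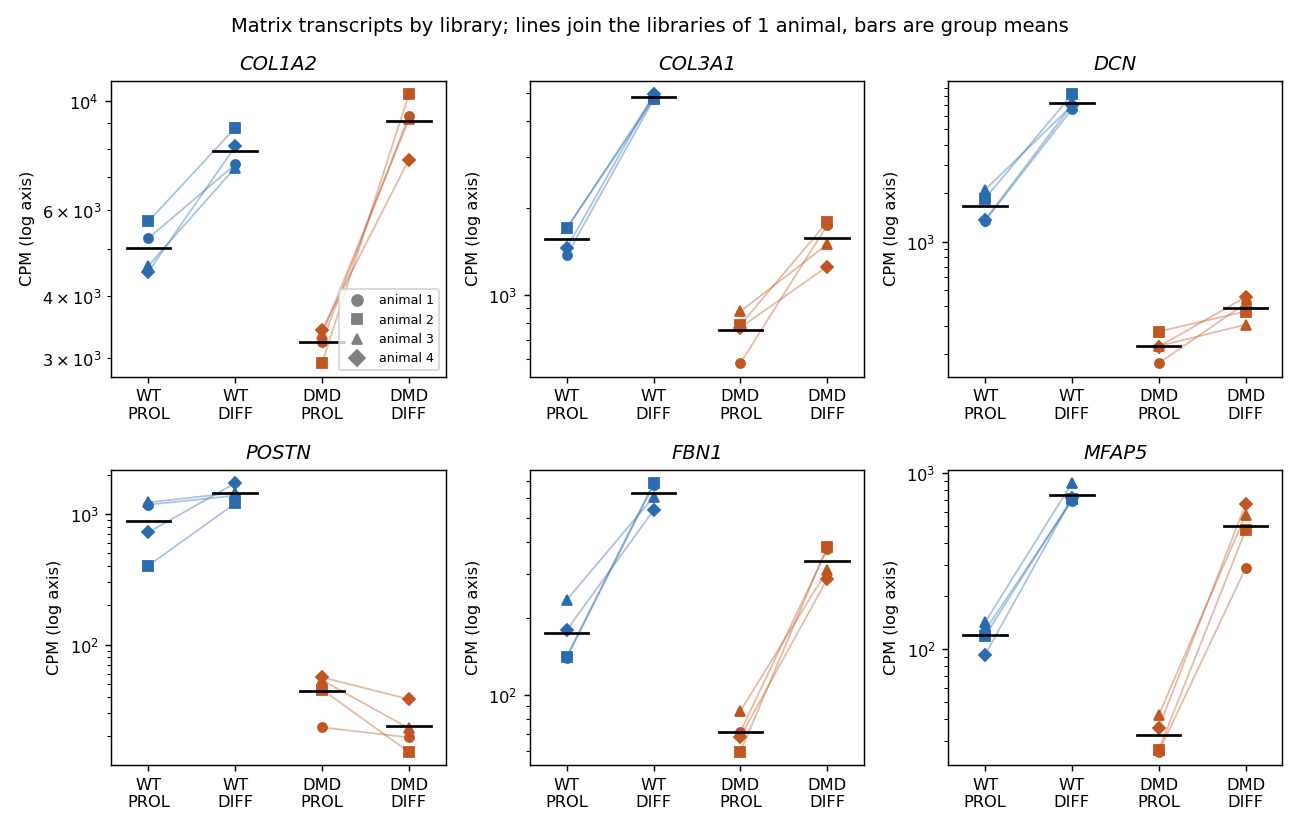
CPM (log axis, a different range in each panel) of the 6 transcripts in every library of the 4 groups. Points are libraries, marker shapes give the animal number within a genotype, lines join the PROL and DIFF library of 1 animal and black bars are group means (n = 4). WT lies above DMD without overlap in all panels in PROL, while COL1A2 overlaps in DIFF and POSTN lies between 15.2 and 38.4 CPM in DMD DIFF.

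COL1A2, the α2 chain of type I collagen, measured 5254, 5683, 4618 and 4490 CPM in WT PROL replicates 1 to 4 and 3234, 2924, 3347 and 3419 CPM in DMD PROL. In DIFF it measured 7427, 8816, 7316 and 8078 CPM in WT and 9320, 10309, 9173 and 7597 CPM in DMD. The DMD libraries were all below the WT libraries in PROL, whereas in DIFF the ranges overlapped, with 3 of the 4 DMD libraries above every WT library. The log2 fold change of DMD against WT was −0.64 ± 0.09 (SE) in PROL (edgeR quasi-likelihood test, adjusted p = 5.46e-05) and 0.20 ± 0.10 in DIFF (adjusted p = 0.140, 95% interval −0.03 to 0.42). Without WT PROL replicate 2, the PROL difference was −0.57 and fell short of the fold minimum.

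COL3A1 forms the homotrimer of type III collagen, which shares fibrils with type I. Its levels were 1369, 1700, 1697 and 1451 CPM in WT PROL and 4746, 4740, 4851 and 4933 CPM in WT DIFF. In DMD they were 579.5, 786.2, 875.7 and 770.3 CPM during PROL and 1741, 1786, 1494 and 1252 CPM during DIFF. The WT DIFF libraries agreed to within a coefficient of variation of 1.92% and stood above all others, and the DMD DIFF libraries overlapped with WT PROL. COL3A1 was lower in DMD in both states, by log2 fold changes of −1.06 ± 0.12 in PROL (edgeR, adjusted p = 9.74e-06) and −1.63 ± 0.11 in DIFF (adjusted p = 5.30e-09).

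DCN was at 1345, 1850, 2096 and 1363 CPM in WT PROL and at 6629, 8177, 6971 and 7048 CPM in WT DIFF. In DMD it was at 175.9, 276.8, 224.8 and 223.1 CPM in PROL and at 413.1, 368.4, 305.2 and 452.4 CPM in DIFF. The 4 groups did not overlap, and every DMD DIFF library was below every WT PROL library. The log2 fold change of DMD against WT was −2.90 ± 0.18 in PROL (edgeR, adjusted p = 1.63e-06) and −4.23 ± 0.13 in DIFF (adjusted p = 2.45e-13).

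POSTN varied most among the 6, ranking 2 of 2030 tested genes by the SD of log2 CPM over the 16 libraries. WT PROL libraries had 1179, 403.3, 1228 and 724.7 CPM and WT DIFF libraries 1383, 1206, 1457 and 1722 CPM, while DMD libraries had 23.4, 45.5, 53.6 and 56.4 CPM in PROL and 19.6, 15.2, 23.03 and 38.4 CPM in DIFF. WT PROL replicate 2 was the lowest WT library and still exceeded every DMD library. The log2 fold change of DMD against WT was −4.31 ± 0.47 in PROL (edgeR, adjusted p = 7.15e-04) and −5.93 ± 0.22 in DIFF (adjusted p = 1.44e-09). The DMD values rested on 38 to 92 counts per library in PROL and 26 to 54 in DIFF, against 650 to 2530 counts in the WT libraries.

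FBN1 measured 139.7, 141.5, 236.8 and 180.0 CPM in WT PROL and 71.4, 59.4, 86.2 and 68.2 CPM in DMD PROL. In DIFF it reached 675.7, 684.7, 604.2 and 534.8 CPM in WT and 375.3, 384.7, 309.5 and 286.0 CPM in DMD. All 4 groups were separate, in the order DMD PROL, WT PROL, DMD DIFF and WT DIFF. The log2 fold change of DMD against WT was −1.30 ± 0.18 in PROL (edgeR, adjusted p = 5.93e-05) and −0.89 ± 0.12 in DIFF (adjusted p = 8.71e-06).

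MFAP5 followed the same order of groups, again without overlap between neighbours. It was at 126.6, 117.9, 141.2 and 92.3 CPM in WT PROL, 25.8, 26.5, 41.9 and 35.4 CPM in DMD PROL, 693.5, 711.2, 870.8 and 713.1 CPM in WT DIFF, and 285.7, 469.8, 574.4 and 661.5 CPM in DMD DIFF. The DMD DIFF libraries were spread more than 2-fold, and replicate 4 came close to the lowest WT DIFF library. The log2 fold change of DMD against WT was −1.89 ± 0.20 in PROL (edgeR, adjusted p = 3.59e-06) and −0.59 ± 0.23 in DIFF (adjusted p = 0.0635, 95% interval −1.12 to −0.07). Without DMD DIFF replicate 4, MFAP5 was called in DIFF at −0.76 (edgeR, adjusted p = 0.0119).

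Counted together, 6 of the 6 transcripts were called lower in DMD PROL, where 9.87% of the 1914 genes tested were called lower and 8.36% higher. None of the 6 overlapped between genotypes in PROL, a separation downward that 14.2% of the tested genes showed. In DIFF 4 of 6 were called lower, against 17.5% of 1916 genes called lower and 16.1% called higher, and 5 of 6 were lower without overlap, against 23.2% of genes. The median log2 fold change of the 6 was −1.60 in PROL and −1.26 in DIFF, and that of all tested genes was −0.002 and −0.031. The 6 were picked with results of these data known, so these shares describe the set and do not test it. With library sizes alone in place of TMM, the median of all genes moved to −0.147 in PROL and 0.105 in DIFF and the calls from 160 higher and 189 lower to 122 and 264 in PROL and from 308 and 335 to 387 and 267 in DIFF, and the calls of the 6 stayed as given.

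**Figure D2:**
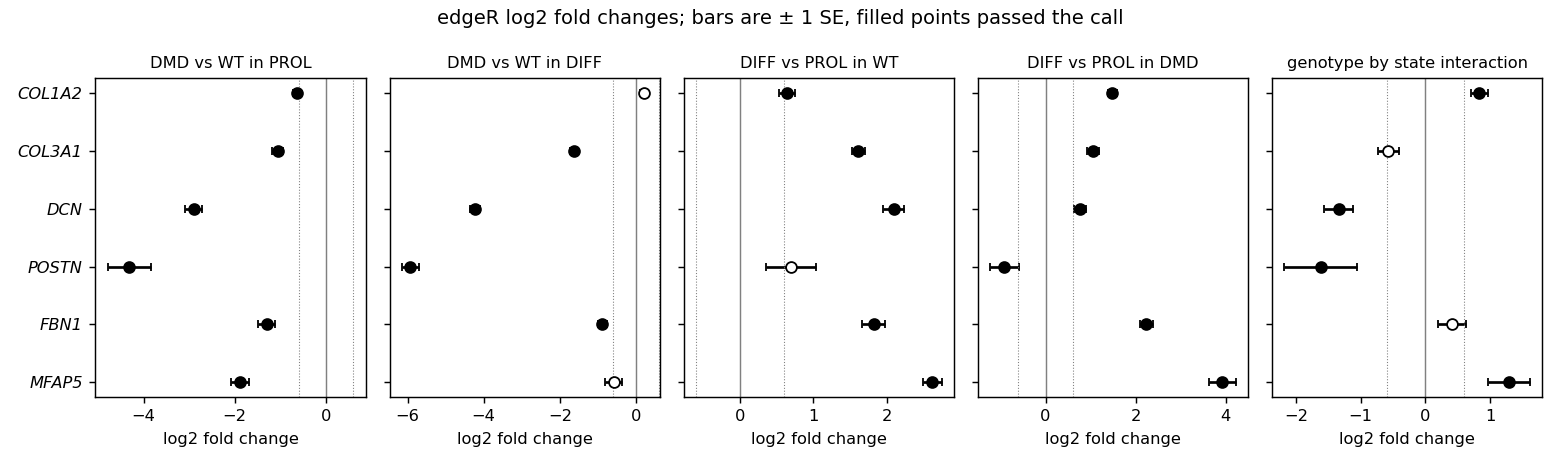
Log2 fold changes from edgeR (x axes, a different range in each panel) of the 6 transcripts in 5 comparisons, with bars of ± 1 SE and dotted lines at −0.6 and 0.6. Filled points were called and open points were not: COL1A2 (0.20) and MFAP5 (−0.59) for genotype in DIFF, POSTN (0.69) for state in WT, and COL3A1 (−0.57) and FBN1 (0.41) for the interaction.

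Differentiation was compared within each genotype, in which PROL and DIFF libraries came from the same animals. In WT, COL1A2 rose 1.56-fold, COL3A1 3.06-fold, FBN1 3.53-fold, DCN 4.28-fold and MFAP5 6.15-fold from PROL to DIFF. These were 5 of 6 called higher, against 17.9% of 1921 genes called higher and 14.3% called lower, and the same 5 were higher without overlap, against 23.6% of genes. Their log2 fold changes were 0.64 ± 0.10 for COL1A2 (edgeR, adjusted p = 1.12e-04), 1.61 ± 0.09 for COL3A1 (3.40e-09), 1.82 ± 0.16 for FBN1 (7.72e-07), 2.10 ± 0.14 for DCN (5.48e-08) and 2.62 ± 0.13 for MFAP5 (4.22e-10). COL1A2 sat close to the fold minimum. It was 0.29 with library sizes alone, under which the median of all genes moved to −0.316 and the calls from 343 higher and 275 lower to 194 and 564, 0.59 in 1 of the duplicates alone, and 0.59, 0.59 and 0.58 without WT PROL replicate 3, WT PROL replicate 4 or WT DIFF replicate 2.

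POSTN did not pass in WT, with a log2 fold change of 0.69 ± 0.34 (edgeR, adjusted p = 0.143, 95% interval −0.12 to 1.51). It was higher in DIFF than in PROL in 4 of 4 WT animals, by 0.23 and 0.25 on the log2 scale in animals 1 and 3 and by 1.58 and 1.25 in animals 2 and 4, and the ranges of the states overlapped. With the animal as a block the change was 0.80 and was called (adjusted p = 0.0430).

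In DMD SCs, DCN rose 1.70-fold, COL3A1 2.07-fold, COL1A2 2.80-fold, FBN1 4.71-fold and MFAP5 15.2-fold from PROL to DIFF, whereas POSTN was called lower at 1.88-fold. The MFAP5 rise started from 42 to 72 counts per library in DMD PROL. The 5 called higher stood against 16.0% of 1886 genes and the 1 called lower against 12.4%, and the 5 were higher without overlap, against 21.6% of genes. The log2 fold changes were 0.76 ± 0.14 for DCN (edgeR, adjusted p = 5.51e-04), 1.05 ± 0.14 for COL3A1 (6.91e-05), 1.48 ± 0.09 for COL1A2 (1.47e-09), 2.24 ± 0.14 for FBN1 (1.42e-09) and 3.92 ± 0.30 for MFAP5 (1.05e-05). For POSTN the change was −0.91 ± 0.32 (adjusted p = 0.0303). POSTN was lower in DIFF in 4 of 4 DMD animals, by 0.25 to 1.59 on the log2 scale, although the ranges of the states overlapped. The POSTN call was lost in 6 of the 8 fits that left out 1 library (DMD PROL replicates 2, 3 and 4 with adjusted p = 0.0610, 0.0841 and 0.0817, and DMD DIFF replicates 1, 2 and 3 with 0.0763, 0.0967 and 0.0684), in a single fit over all libraries (0.141) and in 1 of the duplicates alone (0.161).

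The interaction, the log2 change from PROL to DIFF in DMD minus that in WT, tested whether the genotypes responded unequally. It was positive and called for COL1A2 at 0.84 ± 0.14 (edgeR, adjusted p = 5.53e-05) and for MFAP5 at 1.30 ± 0.32 (0.00651), and negative and called for DCN at −1.34 ± 0.22 (1.73e-04) and for POSTN at −1.61 ± 0.56 (0.0475). Thus 2 of the 6 were called higher and 2 lower, where 10.5% of the 2030 genes tested were called higher and 13.0% lower. COL3A1 had a negative interaction of −0.57 ± 0.16 that passed the adjusted p (0.0106) but not the fold minimum, and that did not pass the adjusted p with library sizes alone (−0.29, 0.192) or without DMD animal 3 (−0.47, 0.0535), and FBN1 had 0.41 ± 0.22 (0.177, 95% interval −0.04 to 0.87). The POSTN interaction lost its call under several alternatives, with adjusted p between 0.0514 and 0.142. They were fits without WT animal 1 or 4 or without any 1 of the DMD animals, without the filter, with library sizes alone, with halved counts and with 1 of the duplicates alone.

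The direction of the called interactions can be described animal by animal. These changes come from the same libraries as the test and are no added evidence. The share of all tested genes that separates in this way was not counted. COL1A2 rose by 0.50 to 0.85 on the log2 scale in the WT animals and by 1.15 to 1.82 in the DMD animals. MFAP5 rose by 2.45 to 2.95 in WT and by 3.47 to 4.22 in DMD. For both, every DMD animal exceeded every WT animal. DCN rose by 1.73 to 2.37 in WT and by 0.41 to 1.23 in DMD, without overlap in the other direction. POSTN changed by 0.23 to 1.58 in WT and by −1.59 to −0.25 in DMD, also without overlap. The ranges overlapped for COL3A1 (1.48 to 1.79 in WT, 0.70 to 1.59 in DMD) and for FBN1 (1.35 to 2.28 and 1.85 to 2.695). Under library sizes alone the interaction median of all genes moved to 0.246 and the calls from 213 higher and 263 lower to 387 and 134, FBN1 was then called at 0.69, and COL1A2, MFAP5 and DCN kept their calls and directions.

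Ratios of 2 transcripts inside 1 library do not depend on scaling. For each COL1A2 count, WT PROL libraries held 0.313 ± 0.045 COL3A1 counts (SD, n = 4) and WT DIFF libraries 0.613 ± 0.054, while DMD PROL held 0.234 ± 0.041 and DMD DIFF 0.172 ± 0.011. The WT DIFF ratios were above all others and those of DMD PROL and DMD DIFF overlapped, the lowest of the former being 0.179 and the highest of the latter 0.187. The DCN to COL1A2 ratio was 0.335 ± 0.085 (PROL) and 0.911 ± 0.036 (DIFF) in WT, against 0.0704 ± 0.0171 and 0.0432 ± 0.0119 in DMD. WT DIFF libraries thus held nearly as many DCN as COL1A2 counts, and no DMD library came above 0.0947.

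POSTN per COL1A2 count was 0.181 ± 0.085 in WT PROL and 0.184 ± 0.033 in WT DIFF, so the 2 transcripts kept the same mean proportion in WT while the libraries of WT PROL ranged from 0.0710 to 0.266. In DMD the proportion was 0.0138 ± 0.0044 in PROL and 0.00279 ± 0.00157 in DIFF, without overlap. The microfibril pair behaved otherwise. MFAP5 per FBN1 count was 0.712 ± 0.187 in WT PROL and 1.21 ± 0.21 in WT DIFF, and 0.454 ± 0.068 in DMD PROL and 1.54 ± 0.68 in DMD DIFF. Its DIFF values overlapped between genotypes, from 1.03 to 1.44 in WT and from 0.761 to 2.31 in DMD.

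**Figure D3:**
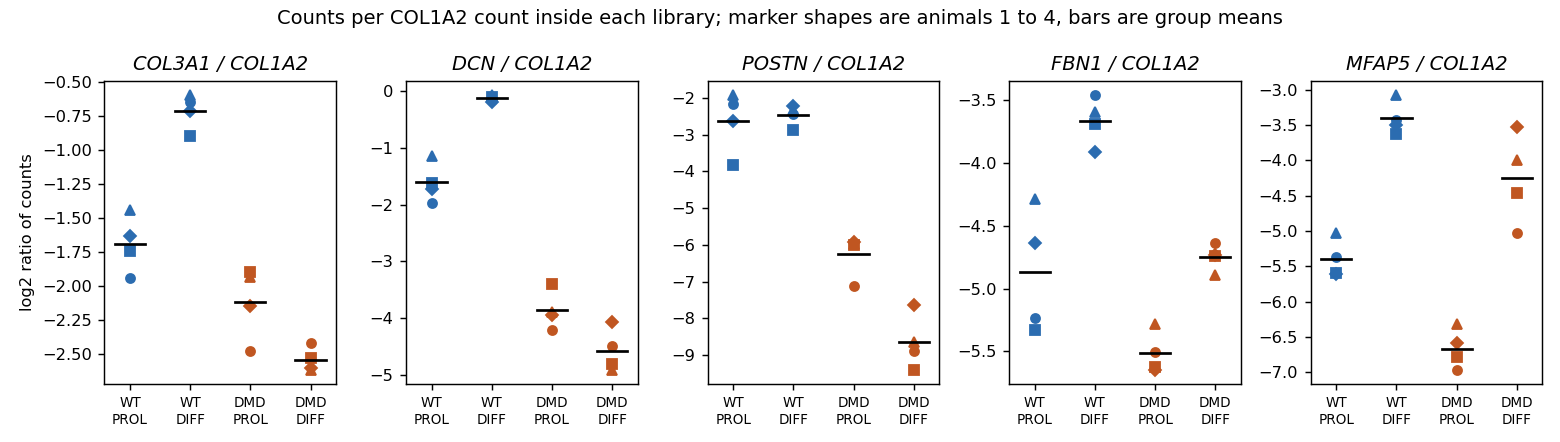
Log2 ratio of the counts of COL3A1, DCN, POSTN, FBN1 and MFAP5 to those of COL1A2 (y axes, a different range in each panel) in every library, with marker shapes for animals 1 to 4 and bars at the group means of the log2 ratio. The DCN ratio has a mean of −0.13 in WT DIFF and of −4.57 in DMD DIFF, and the POSTN ratio of −2.46 and −8.64.

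The 6 transcripts together took 1.07% ± 0.07 (SD, n = 4) of the library counts during PROL and 2.01% ± 0.11 during DIFF in WT, against 0.446% ± 0.031 and 1.15% ± 0.12 in DMD. WT DIFF and DMD PROL were apart from the rest, whereas WT PROL (0.972% to 1.13%) and DMD DIFF (0.994% to 1.28%) overlapped. Their make-up differed all the same. COL1A2 gave 53.4% of the 6 in WT PROL and 34.7% in WT DIFF, but 74.2% in DMD PROL and 76.3% in DMD DIFF. DCN gave 17.6% and 31.6% in WT and 5.18% and 3.28% in DMD. POSTN gave 9.40% and 6.36% in WT and 1.02% and 0.211% in DMD.

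Within groups the libraries differed by more than the technical duplicates for each of the 6. The SD of log2 CPM between animals against that between duplicates was 0.145 against 0.102 for COL1A2, 0.191 against 0.069 for COL3A1, 0.251 against 0.131 for DCN, 0.564 against 0.252 for POSTN, 0.250 against 0.178 for FBN1 and 0.348 against 0.188 for MFAP5. The SD between animals came from summed duplicates after TMM and includes technical noise. That between duplicates came from single duplicates scaled by library size alone. No library was high or low throughout. WT PROL replicate 3 was the highest of its group for 4 of the 6, DMD PROL replicate 1 the lowest for 4, and DMD DIFF replicate 4 was the highest for DCN, POSTN and MFAP5 and the lowest for COL1A2, COL3A1 and FBN1.

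The patterns of the 6 were compared by the root-mean-square difference of log2 CPM centred on each gene's mean over the 16 libraries, where 0 is an identical pattern. The measure is not scaled for how much a gene varies. The SD of log2 CPM over the 16 libraries ran from 0.619 for COL1A2 to 2.69 for POSTN. Among the 6, COL3A1 and FBN1 were nearest (0.489), followed by COL1A2 with COL3A1 (0.697) and with FBN1 (0.700), and FBN1 with MFAP5 (0.744). DCN and POSTN were 1.16 apart, and POSTN and MFAP5 were farthest at 2.64. The distances of COL1A2 to COL3A1 and FBN1 exceeded its own SD, so they do not show a shared pattern, and the distances of POSTN include its wide spread. Among 1534 other tested genes of at least 20 CPM on average, the nearest were CAMK2D (0.256) and PICALM (0.259) for COL1A2, IL6ST (0.214) and EPHX1 (0.273) for COL3A1, C2 (0.560) and SERPING1 (0.588) for DCN, VCAM1 (1.02) and SLPI (1.15) for POSTN, HIST1H2BD (0.320) and RND3 (0.432) for FBN1, and ANGPTL4 (0.535) and PHYHIPL (0.713) for MFAP5. SERPING1, the C1 inhibitor of complement, was at 229 ± 72 (PROL) and 2251 ± 325 (DIFF) CPM in WT and 59.5 ± 16.2 and 57.9 ± 7.1 CPM in DMD. VCAM1, a cell adhesion molecule, was at 194 ± 68, 488 ± 82, 17.1 ± 3.3 and 25.5 ± 16.7 CPM in the same order. IL6ST, the shared signalling receptor of the interleukin-6 family, was at 259 ± 68, 758 ± 66, 120 ± 24 and 205 ± 39 CPM.

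Other genes of the matrix were called in both directions. Of 197 matrix genes listed, the 6 included, 51 others were in the count table. In PROL 7 of the 34 tested were called higher in DMD and 5 lower (8.36% and 9.87% of all genes tested), with a median log2 fold change of −0.086. In DIFF 11 of 35 were called higher and 11 lower (16.1% and 17.5% of all genes), with a median of −0.118. COL1A1, COL6A1, COL6A2, COL6A3, BGN, SPARC, FN1 and ELN were not among the genes counted, so the matrix was sampled in part.

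Among the fibrillar collagens, the other 3 measured (COL5A1, COL5A2 and COL5A3) were not called in PROL. In DIFF 2 were called higher in DMD, as were 16.1% of all genes. COL5A2, a minor chain that nucleates type I fibrils, had 716 ± 84 CPM in WT DIFF and 1520 ± 247 in DMD DIFF (log2 fold change 1.08 ± 0.12, edgeR, adjusted p = 1.87e-06), opposite to COL3A1. COL10A1, the 1 other collagen in the table, had no counts. Of 5 genes of collagen processing, none was called in PROL and 2 were called lower in DMD DIFF (17.5% of all genes). LOX, the oxidase that crosslinks collagen and elastin, had 1542 ± 240 CPM in WT DIFF and 549 ± 141 in DMD DIFF (−1.49 ± 0.18, adjusted p = 4.39e-05). SERPINH1, the collagen chaperone HSP47, had 1105 and 1023 CPM in DIFF and was not called.

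Beside DCN, 2 small leucine-rich proteoglycans were measured. Neither was called in PROL, and LUM was called lower in DMD DIFF, as were 17.5% of all genes. LUM (lumican) had 1340 ± 163 CPM in WT DIFF and 148 ± 78 in DMD DIFF (−3.17 ± 0.44, edgeR, adjusted p = 9.70e-04). ASPN (asporin) had a log2 fold change of −1.19 in DIFF (adjusted p = 0.144). Beside FBN1 and MFAP5, EFEMP1 (fibulin-3) was the 1 tested gene of microfibrils and elastic fibres, and it went 2 ways. It had 35.6 ± 22.4 CPM in WT PROL and 83.0 ± 11.1 in DMD PROL (1.21 ± 0.39, adjusted p = 0.0427), a call lost in 6 of the fits that left out 1 library and in 3 others, and 564 ± 147 CPM in WT DIFF and 44.6 ± 7.8 in DMD DIFF (−3.67 ± 0.20, adjusted p = 2.01e-08).

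The other matricellular genes differed from POSTN most clearly in DIFF. Of 22 matricellular genes listed, 6 were in the count table, POSTN included. In DIFF all 5 others measured, SPARCL1, THBS1, TNC, CCN2 and SPP1, were called higher in DMD, as were 16.1% of all genes. Their median log2 fold change was 2.54. In PROL SPARCL1 and TNC were called higher (8.36% of all genes) and the others were not called, THBS1 at −0.54 and CCN2 at −0.08. TNC, like POSTN, fell from PROL to DIFF in DMD (−1.65, edgeR, adjusted p = 0.00141). Unlike POSTN, it also fell in WT (−3.57, adjusted p = 6.99e-07), and its interaction was positive (1.91, adjusted p = 0.00914). CCN2, a growth factor-binding protein that responds to TGF-β, had 24.7 ± 6.9 CPM in WT DIFF and 88.2 ± 16.2 in DMD DIFF (1.83 ± 0.22, edgeR, adjusted p = 3.71e-06). SPARCL1 had 4.03 ± 2.63 CPM in WT PROL and 12.2 ± 5.4 in DMD PROL (1.59 ± 0.52, adjusted p = 0.0326), a call lost in 5 of the fits that left out 1 library. In the further glycoproteins and proteoglycans, 1 of 3 was called higher in PROL and 2 of 3 in DIFF (8.36% and 16.1% of all genes). VCAN (versican) had 56.3 ± 20.8 CPM in WT PROL and 99.4 ± 6.9 in DMD PROL (0.81 ± 0.24, adjusted p = 0.0211, lost without WT PROL replicate 1 or DMD PROL replicate 1 and in 1 of the duplicates alone), and IGFBP7 had 4412 ± 703 CPM in WT DIFF and 9029 ± 2027 in DMD DIFF (1.02 ± 0.15, adjusted p = 6.50e-05).

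Of 11 proteases and inhibitors tested in each state, 2 were called higher and 4 lower in DMD PROL (8.36% and 9.87% of all genes), and 1 higher and 6 lower in DMD DIFF (16.1% and 17.5%). MMP2, a gelatinase, was lower in both, with 153 ± 33 CPM in WT PROL and 48.5 ± 9.2 in DMD PROL (−1.67 ± 0.19, edgeR, adjusted p = 7.48e-06) and 277 ± 28 and 72.4 ± 14.8 in DIFF (−1.95 ± 0.14, adjusted p = 1.39e-08). Among the receptors, 1 of 4 was called higher and 1 lower in PROL (8.36% and 9.87% of all genes). In DIFF 1 of 5 was called higher and 1 lower (16.1% and 17.5%). ITGB3, the integrin β3 chain, which pairs with αv to bind periostin among other ligands, had 55.0 ± 5.6 CPM in WT PROL and 4.96 ± 2.87 in DMD PROL (−3.46 ± 0.32, adjusted p = 1.15e-06). ITGB1, whose protein was used for selection, had 3440 ± 272 CPM in WT DIFF and 7753 ± 671 in DMD DIFF (1.16 ± 0.10, adjusted p = 4.46e-08).

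**Figure D4:**
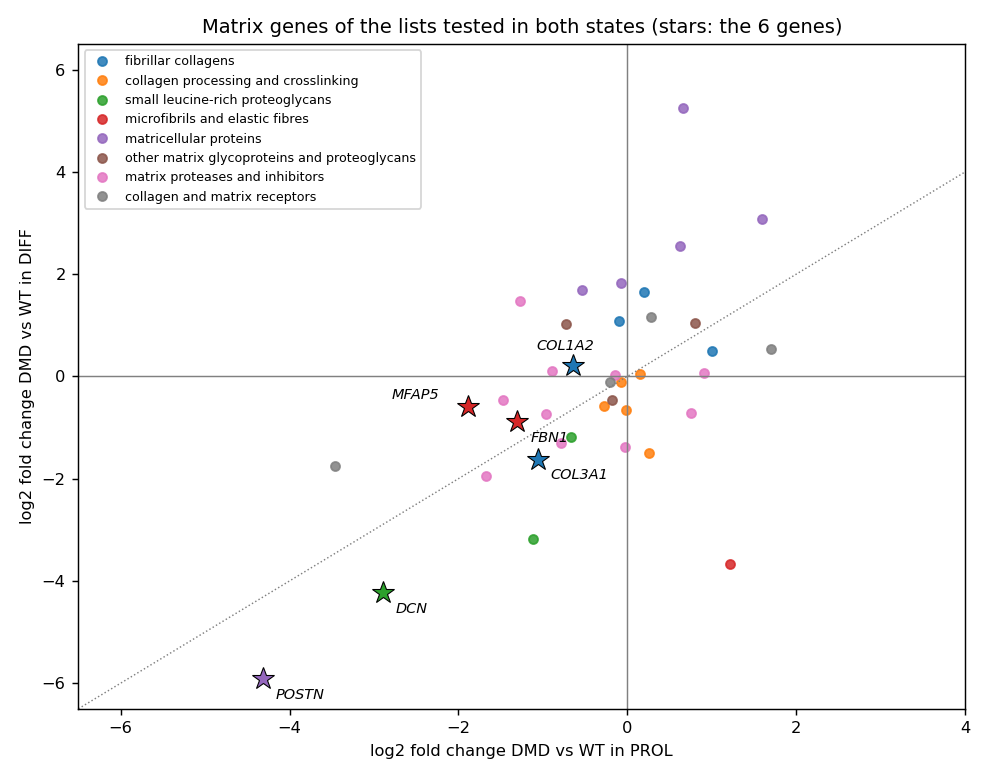
Log2 fold change of DMD against WT in PROL (x axis) and in DIFF (y axis) for matrix genes tested in both states, coloured by list, with the 6 genes as stars and the dotted line at equal change. POSTN (−4.31, −5.93) and DCN (−2.90, −4.23) lie at the lower left, while the 5 other matricellular genes lie above 0 on the y axis.

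Markers of other cell types that the cultures could hold also differed between the groups, in unlike ways. Of 20 fibroblast and fibro-adipogenic markers, 6 were in the table, and their summed level was 239 to 385 (PROL) and 1207 to 1623 (DIFF) CPM in WT against 115 to 264 and 76.3 to 245 CPM in DMD. WT DIFF was highest and both WT means were above both DMD means, as for DCN and POSTN but not for COL1A2, COL3A1, FBN1 and MFAP5. LUM supplied most of the sum. In DIFF 3 of the 4 tested (THY1, PI16 and LUM) were called lower in DMD, as were 17.5% of all genes. DPP4 went the other way in PROL, where it was the 1 called of 2 tested (8.36% of all genes called higher). It had 25.4 CPM in WT and 48.2 CPM in DMD (log2 fold change 0.91, edgeR, adjusted p = 0.0171). PDGFRA and PDGFRB were not among the genes counted, and THY1 had totals of 38 (PROL) and 196 (DIFF) counts in WT and 8 and 40 in DMD. Of 25 myogenic markers, 13 were in the table, with sums of 303 to 412 (PROL) and 2824 to 4918 (DIFF) CPM in WT against 5761 to 9317 and 17908 to 21434 CPM in DMD. All 8 tested in PROL and all 9 tested in DIFF were called higher in DMD, as were 8.36% and 16.1% of all genes. The part of cell composition in the differences of the 6 transcripts was not tested.

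Pericyte and smooth muscle markers, 5 of 13 in the table, summed to 2040 to 3238 (PROL) and 1515 to 3504 (DIFF) CPM in WT against 1912 to 2436 and 15886 to 20486 CPM in DMD. ACTA2 contributed 11648 CPM and TAGLN 6513 CPM to the mean of the DMD DIFF sums. Of the 5 tested in PROL, RGS5 and CNN1 were called lower in DMD, as were 9.87% of all genes. RGS5 was at 104.8 CPM in WT and 4.91 in DMD (log2 fold change −4.40, edgeR, adjusted p = 0.00482) and CNN1 at 20.9 and 9.59 (−1.13, adjusted p = 0.0433). All 4 tested in DIFF, CNN1 included, were called higher in DMD, as were 16.1% of all genes. CNN1 was then at 67.7 CPM in WT and 414.8 in DMD (2.61, edgeR, adjusted p = 0.0163). Endothelial markers, 6 of 14 in the table, summed to 146 to 163 CPM, 79.8 to 124, 16.0 to 34.9 and 33.8 to 50.4 in the same order of groups, with CDH5 not counted and PECAM1 at totals of 122, 222, 12 and 56 counts. All 3 tested (PECAM1, ERG and ENG) were called lower in DMD PROL and 2 of 3 in DMD DIFF, as were 9.87% and 17.5% of all genes. Blood and macrophage markers, 8 of 15 in the table, summed to 44.6 to 88.0, 59.9 to 74.3, 33.2 to 54.7 and 30.8 to 38.4 CPM, and adipocyte markers, 7 of 9, to 3.08 to 14.9, 12.9 to 35.3, 6.99 to 11.8 and 7.11 to 15.8 CPM. PTPRC, which encodes CD45, was not among the genes counted.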

How the data were processed

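SCs of 8 piglets were profiled by 3′ mRNA-seq with unique molecular identifiers from 25 ng of RNA. According to the methods and the submitters' processing notes, the authors demultiplexed with bcl2fastq, inspected reads with FastQC and MultiQC, removed duplicates with UMI-tools, aligned with STAR 2.7.10b to susScr3 and counted genes with STAR, then tested with edgeR in R 4.1.2. The annotation and strand setting are not given in the sources used here, so reads of overlapping or antisense genes may be merged. The deposited values are raw counts in 32 columns, 2 technical duplicates for each of 16 samples. All 124000 values are even, which no source explains, so fits with halved counts were an alternative.

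Duplicates were added per sample (totals of 1110050 to 1781174 counts). All 6 symbols matched the pig gene name table. Positions and sequences are not given, since the annotation used here was of another assembly. Genes passing filterByExpr (minimum count 10, minimum total 15) were tested with TMM, estimateDisp, robust glmQLFit and glmQLFTest in edgeR 4.0.16 (R 4.3.3, limma 3.58.1), with Benjamini-Hochberg adjustment over all genes tested. Genotype comparisons used the 8 libraries of a state, state comparisons the 8 of a genotype and the interaction all 16. The SE is the absolute log2 fold change divided by the square root of the F statistic, and the 95% interval uses the same statistic and p. CPM used TMM over all 16 libraries, and log2 CPM a prior count of 2. The scripts were tested on simulated data. Animals are the replicates within a group, and p-values measure the spread between animals of 1 culture each. The main state and interaction fits held no term for the animal, so they treated its PROL and DIFF libraries as independent.

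The 6 genes, the 9 matrix lists and the 6 marker lists were chosen with earlier results of these data known. Other genes named are, per matrix list and state, the called gene with the smallest p, and per transcript the 2 genes nearest in pattern. Further list genes were named after their values were seen. PROL and DIFF libraries with the same number within a genotype come from the same animal: their deviations from the group means correlated at r = 0.114 to 0.172 in WT and 0.100 to 0.143 in DMD, each highest with its own animal (4 of 4 in both). Alternatives were DESeq2 1.42.0, library sizes alone, no filter or a minimum count of 30, duplicates alone, halved counts, 1 fit over all libraries, a replicate block, the adjusted p alone and leaving out each replicate.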

Additional observations from a re-analysis of the deposited data

Results flagged for a closer look

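The change from PROL to DIFF differed between the genotypes by the edgeR interaction test (adjusted p under 0.05) for 5 of the 6 transcripts. By the adjusted p alone, 587 of the 2030 genes tested passed. The log2 interaction (DMD minus WT) was 0.84 for COL1A2 and 1.30 for MFAP5, −0.57 for COL3A1, −1.34 for DCN and −1.61 for POSTN. The COL3A1 value is under the fold minimum of 0.6 and had an adjusted p of 0.192 with library sizes alone and of 0.0535 without DMD animal 3, and the POSTN value lost its call under the alternatives listed with it.

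MFAP5 in WT DIFF replicate 3, at 870.8 CPM, stood apart from the other 3 libraries of its group (693.5 to 713.1 CPM) by Dixon's criterion. Chance marks about 1 in 20 groups this way, and 24 groups were examined.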

How the results depend on the processing

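Over 35 settings, the 6 transcripts in 5 comparisons gave 564 alternative values, of which 530 kept their direction and their side of the threshold, 24 lost the call, 10 gained it and 0 changed sign. Those that changed stand beside the results, and the cause was not tested. Leaving out RN18S, which enlarges every share by construction, gave shares of the 6 of 1.17% (PROL) and 2.20% (DIFF) in WT against 0.503% and 1.28% in DMD. COL3A1 was called in the interaction at −0.61 to −0.73 in the fits without WT animal 2 or 3 or DMD animal 1 or 2, and at −0.69 in 1 of the duplicates alone, and it missed the adjusted p with library sizes alone (−0.29, 0.192) and without DMD animal 3 (−0.47, 0.0535). With the animal as a block (PROL and DIFF), POSTN in WT was called at 0.80, and no other state call and no interaction call among the 6 changed. WT and DMD animals share numbers only as labels: deviations of equal numbers correlated at −0.03 to 0.10 in PROL and −0.01 to 0.09 in DIFF, with 1 of 4 and 2 of 4 best with their own number, and that replicate block called MFAP5 at −0.65 in DIFF. POSTN in DMD rested on 26 to 92 counts per library, and MFAP5 in DMD PROL on 42 to 72. Intervals rest on 4 animals per group.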
